A study of Homo sapiens with 2 samples.

Results

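ATF4 response genes are the genes that the transcription factor ATF4 switches on when amino acids run short or proteins misfold, together with ATF4 itself and the factors that work beside it. They were chosen by symbol from a list of 34 genes, and 33 of these 34 were found among the 16424 genes with deposited values. FGF21, a secreted hormone of the liver, was the other member of the list and was not analysed here. All 33 had at least 1 CPM (tags scaled to the size of the library) in both libraries, so no member was lost to a filter on low values.

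ATF4 is the main effector of the integrated stress response. Kinases that sense amino acid shortage, endoplasmic reticulum stress, haem shortage or double-stranded RNA phosphorylate the translation factor eIF2, which lowers protein synthesis in general but raises translation of ATF4 mRNA through short upstream reading frames. ATF4 protein then pairs with C/EBP and other bZIP factors and induces genes for amino acid synthesis, amino acid uptake and stress control, and in liver cells this response is known from dietary amino acid shortage. mTORC1 signaling can raise ATF4 as well.

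Cap analysis of gene expression (CAGE) sequences the capped 5′ ends of RNA as tags, and each tag marks 1 transcript start. The cells were PLC/PRF/5, an established human hepatoma line. The non-treated group (0 µg/ml) held 1 library, and the M2BPGi-treated group, given 3 µg/ml of the glycosylated Mac-2-binding protein isomer M2BPGi for 6 h, also held 1. The comparison asked which signals M2BPGi regulates in hepatoma cells.

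Since a transcript gives 1 tag whatever its length, CPM can be set side by side between genes without division by length. The tag totals were 24040209 for non-treated and 24862941 for M2BPGi-treated cells, so that 1 tag was worth 0.0416 and 0.0402 CPM. With 1 library per condition, none of the differences has a replicate check and no test of the conditions was possible. Log2 ratios set M2BPGi-treated over non-treated cells and were taken after adding 1 CPM to both values, which understates differences of low genes. Intervals in the text are 95% Clopper-Pearson intervals of the log2 ratio of the tags, and they cover counting error only. They say nothing about the spread between cultures.

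The hepatoma label was checked against liver genes. AFP, the fetal albumin-like protein of hepatoma cells, had 695 CPM without and 566 CPM with M2BPGi. FGB, a fibrinogen chain, had 950.0 and 623 CPM, and ALB had 8.82 and 7.04 CPM. The 8 hepatocyte markers summed to 2388 CPM without and 1713 CPM with M2BPGi, with a median log2 ratio of -0.35 and 6 of 8 lower. SERPINA1 had 671 and 455 CPM, and HNF4A had 39.1 and 43.8 CPM. Albumin was low in both libraries, and so were TTR (3.62 and 2.49 CPM), APOA1 (4.37 and 4.63 CPM) and APOB (15.6 and 11.1 CPM). The check of the label thus rests mainly on AFP, FGB and SERPINA1, and not on all 8 markers. Of 5 fibroblast markers 2 were listed, and they summed to 5.2 and 4.18 CPM, most of it COL3A1. Of 5 macrophage markers 2 were listed, with CD68 at 21.2 and 20.5 CPM and the leukocyte marker PTPRC at 0 in both libraries, where 3 tags would be 0.125 and 0.121 CPM. None of the 4 endothelial markers entered the comparison. The liver genes were lower beside the ATF4 response genes that were higher, and the part of this difference in the result was not tested. In such bulk RNA, fewer cells of a type and less RNA per cell cannot be told apart.

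The ATF4 response genes were mostly higher in M2BPGi-treated cells. Their median log2 ratio was 0.33, with the middle of the list between 0.11 and 0.52, and 26 of 33 were above 0. Over the 13724 genes with a mean of at least 1 CPM the median was -0.05, with quartiles of -0.26 and 0.14, and 42.9% were above 0. More of the members than of all genes were thus higher, in a list chosen with earlier results of these data known. At a 1.5-fold threshold 6 of 33 members were higher, compared with 1.6% of all genes, and 0 of 33 were lower, compared with 4.04%. At a smaller threshold, where either library exceeds the other by 25%, 17 of 33 were higher beside 9.04% of all genes, and 2 of 33 (SLC38A2 and ALDH18A1) were lower beside 18.4%. The shares of higher members exceeded the background at both thresholds, and those of lower members were under it. In the order of all genes by log2 ratio, 24 of the 33 members lay above the upper quartile and 11 above the 95th percentile (0.41). The lower members were fewer, with 3 below the lower quartile and 1 below the 5th percentile (-0.55). Counting error was small for most members: the interval lay above 0 for 22, below 0 for 6 and included 0 for 5. The differences were modest in size, since no member was past 2-fold in either direction. Transcription factors, stress effectors and enzymes were mostly higher, while the transporters lay near the background of all genes; the difference between roles was not tested.

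**Figure D1:**
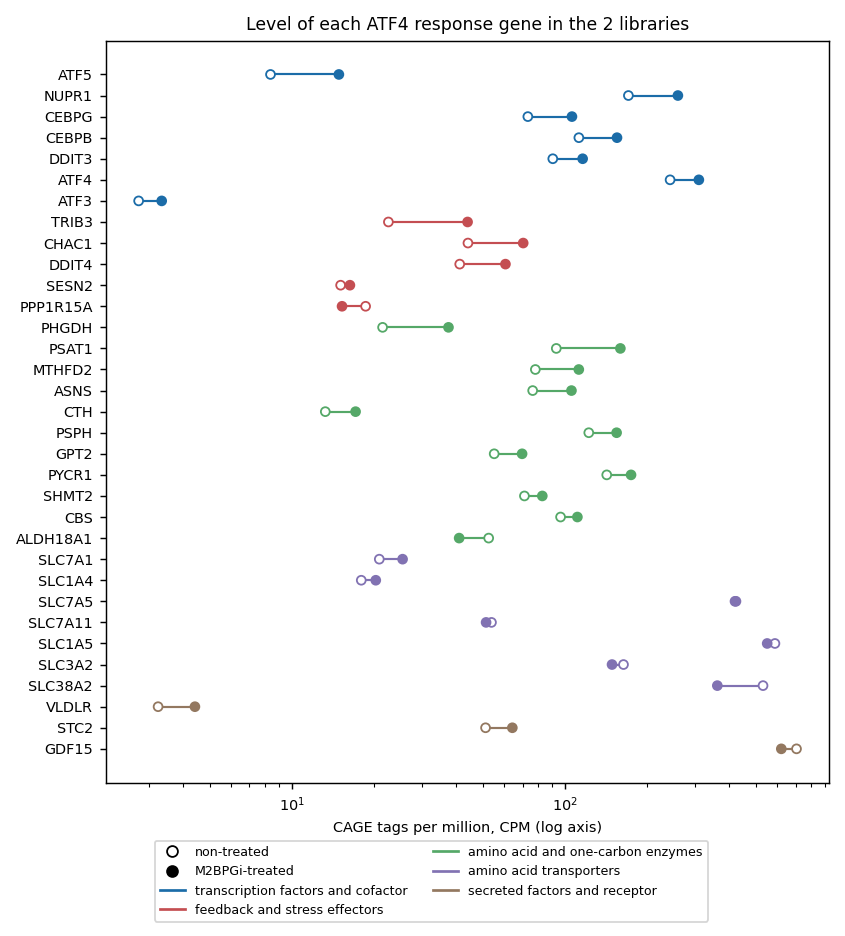
CPM of each of the 33 ATF4 response genes (log axis) in non-treated cells (open circles) and M2BPGi-treated cells (filled circles), 1 library each, coloured by role and ordered by log2 ratio within a role. The levels run from 2.75 CPM for ATF3 to 705 CPM for GDF15, and the filled circle lies to the right for 26 of the 33 genes.

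ATF4 and its partners bind composite C/EBP-ATF elements. The 8 letters TGATGNAA were therefore searched on both strands of the 250 bases before each RefSeq transcript start (assembly GRCh38.p14). These coordinates hold for the RefSeq windows only, since the deposited values carry no positions and the build in the submitters' processing notes is hg19. Of 33 measured members, 27 had a window, and 5 of these 27 genes (18.5%) held a match, in 5 of 44 windows (11.4%). Over all genes with a window, 1061 of 27305 genes (3.89%) and 1104 of 35116 windows (3.14%) held it. The share was not particular to the members, since 3 of 16 cytosolic aminoacyl-tRNA synthetases with a window (18.8%) held a match too, in 14.3% of their windows. The 100-base stretches around the 5 matches are shown 5′ to 3′ on the strand of the gene, because they hold the letters that these members share upstream of their starts. Capitals mark the match, and each stretch lies upstream of the transcript start, outside the transcript.

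The ASNS stretch is at chr7:97872423-97872522 on the minus strand, and its match begins 68 bases before the start.

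ASNS: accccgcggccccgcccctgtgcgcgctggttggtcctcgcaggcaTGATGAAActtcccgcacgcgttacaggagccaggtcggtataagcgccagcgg

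For CEBPG the stretch is at chr19:33374013-33374112 on the plus strand, with the match 42 bases before the start.

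CEBPG: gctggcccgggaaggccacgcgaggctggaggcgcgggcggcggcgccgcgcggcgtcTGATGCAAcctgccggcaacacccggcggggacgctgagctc

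CHAC1 has its match 209 bases before the start in chr15:40953221-40953320 (plus strand), read on the reverse strand, so the capitals show its reverse complement.

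CHAC1: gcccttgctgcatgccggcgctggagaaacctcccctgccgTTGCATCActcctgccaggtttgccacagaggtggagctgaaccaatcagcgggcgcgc

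The ATF3 match lies 191 bases before the start in chr1:212565170-212565269 on the plus strand.

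ATF3: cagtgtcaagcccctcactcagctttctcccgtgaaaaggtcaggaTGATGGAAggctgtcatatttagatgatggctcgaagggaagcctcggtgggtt

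In SLC1A5 it lies 97 bases before the start in chr19:46784858-46784957 on the minus strand.

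SLC1A5: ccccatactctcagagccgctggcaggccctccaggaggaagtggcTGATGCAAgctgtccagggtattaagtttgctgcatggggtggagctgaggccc

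CEBPG and SLC1A5 share the same 8 letters, TGATGCAA, and CHAC1 carries them on the other strand. The log2 ratios of the 5 genes ran from -0.09 for SLC1A5 to 0.66 for CHAC1, with a median of 0.47. The 22 members with a window but without a match had a median of 0.33 and ran from -0.55 to 0.93, so members with and without the letters overlapped widely. Among genes with a window and a mean of at least 1 CPM, the 197 with a match had a median of -0.01. The 8680 without a match had -0.05. At least 1.5-fold higher were 3.05% of the genes with a match and 1.11% of those without, a difference that was not tested. A match describes the letters of a window and is not a binding site. NUPR1, SHMT2, GPT2, PSPH, PYCR1 and SLC7A11 had no window.

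With M2BPGi, 7 of 7 transcription factors were higher, and their median log2 ratio was 0.46. ATF4 (ENSG00000128272), the factor at the centre of the response, had 243 CPM without and 309.6 CPM with M2BPGi, a log2 ratio of 0.35 (interval 0.30 to 0.40). Relative to the median of genes of its own level, a comparison chosen after the data had been examined, the ratio was 0.23. ATF4 has near-identical copies elsewhere in the genome, but the copies ATF4P3 and ATF4P4 were both listed at 0. The tags measure transcript starts, so that the translation of ATF4 mRNA, its main point of control, was not measured.

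ATF5 (ENSG00000169136), a related factor that is translated under the same conditions, had 8.36 CPM without and 14.9 CPM with M2BPGi. Its log2 ratio of 0.76 (interval 0.58 to 1.09) was the highest among the factors, although the interval overlaps those of NUPR1, CEBPG and ATF3, and with a pseudocount of 5 CPM it was 0.57, short of 1.5-fold. ATF3, an immediate stress factor downstream of ATF4, had 2.75 and 3.34 CPM, and its interval of -0.20 to 0.77 includes 0, so that no difference was detectable at this depth. ATF3 was the least abundant of the 33 members in both libraries.

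DDIT3, which encodes the pro-apoptotic factor CHOP, had 90.35 CPM without and 116 CPM with M2BPGi (log2 ratio 0.36). CEBPB, a C/EBP factor that pairs with ATF4, had 113 and 155 CPM (0.46). CEBPG, another partner and the holder of the TGATGCAA match close to its start, had 73.2 and 106 CPM (0.53, interval 0.45 to 0.62). Both C/EBP partners therefore had larger log2 ratios than ATF4, and the interval of CEBPG lay wholly above that of ATF4. NUPR1 (ENSG00000176046), a small stress-induced chromatin cofactor, had 171 CPM without and 259 CPM with M2BPGi, just past 1.5-fold with a log2 ratio of 0.60 (interval 0.55 to 0.66). In CPM this was a difference of 88.5, the widest gap upward of any member. Against genes of its own level the ratio was 0.48, short of 1.5-fold.

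Among the 5 feedback and stress effectors 4 were higher, with a median log2 ratio of 0.55. TRIB3 (ENSG00000101255), a pseudokinase that binds ATF4 and restrains it, had 22.6 CPM without and 44.0 CPM with M2BPGi. This log2 ratio of 0.93 (interval 0.81 to 1.11) was the highest of the 33 members, above 99.7% of all genes, with an interval that overlaps those of ATF5, PHGDH, PSAT1 and VLDLR. CHAC1 (ENSG00000128965), an enzyme that breaks down glutathione, had 44.2 and 70.4 CPM, a log2 ratio of 0.66 (interval 0.56 to 0.78). It carries the reverse-strand match shown above.

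DDIT4, an inhibitor of mTORC1 also known as REDD1, had 41.2 CPM without and 60.6 CPM with M2BPGi, with a ratio of 0.55. SESN2, a leucine sensor that likewise restrains mTORC1, had 15.1 and 16.3 CPM, and its interval of -0.09 to 0.32 includes 0. DDIT4 thus had the larger ratio of these mTORC1 inhibitors, with an interval (0.44 to 0.67) above that of SESN2. PPP1R15A, the phosphatase subunit (GADD34) that removes the phosphate from eIF2 and closes the feedback loop, was the lower member of the group. It had 18.6 CPM without and 15.3 CPM with M2BPGi, a log2 ratio of -0.27 (interval -0.49 to -0.09).

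**Figure D2:**
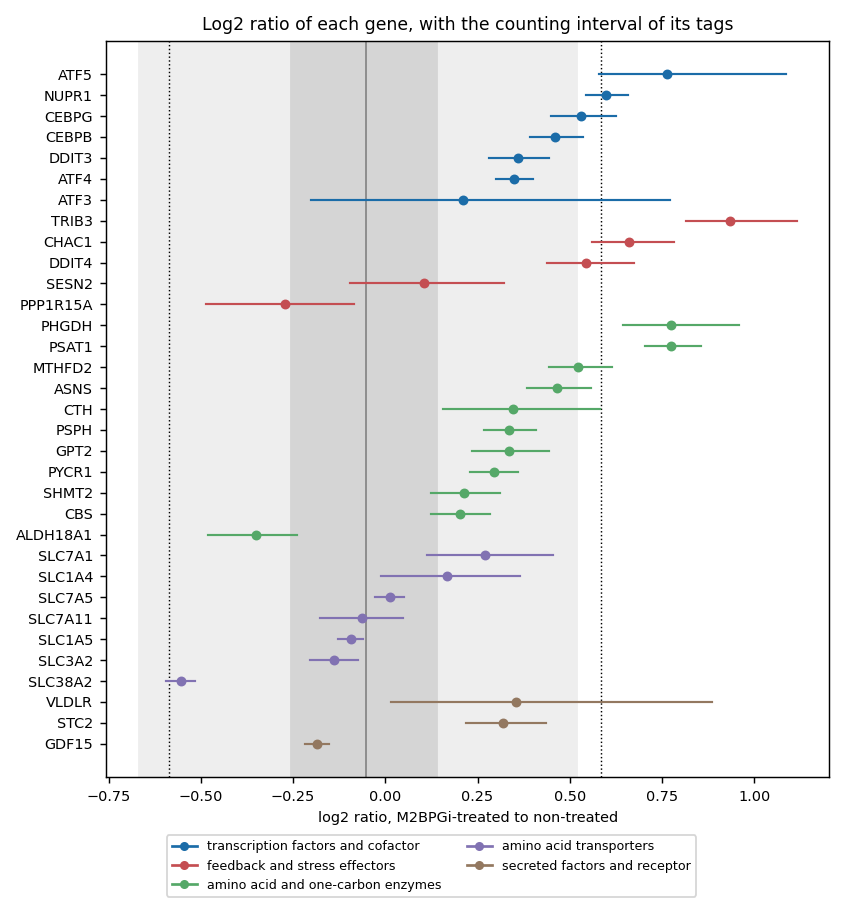
Log2 ratio (M2BPGi-treated over non-treated) for each of the 33 genes (points, with 1 CPM added to both values) and the 95% counting interval of the tag ratio (lines), coloured by role. The grey line is the median of all 13724 genes (-0.05), the dark band their quartiles, the light band the central 95% of them (-0.67 to 0.52), and dotted lines mark 1.5-fold; ATF5, NUPR1, TRIB3, CHAC1, PHGDH and PSAT1 lie beyond the upper dotted line.

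Enzymes of amino acid and one-carbon metabolism were higher in 10 of 11 cases, with a median log2 ratio of 0.34 and a summed level of 822 CPM without and 1067 CPM with M2BPGi. PHGDH and PSAT1 had the highest log2 ratios of the 11. PHGDH (ENSG00000092621), which draws serine synthesis off glycolysis, had 21.5 CPM without and 37.5 CPM with M2BPGi (0.77, interval 0.65 to 0.96). PSAT1 (ENSG00000135069), the transaminase of the next step, had 93.0 and 159.7 CPM (0.77, interval 0.70 to 0.85). PSPH, the phosphatase of the last step, had 122 and 155 CPM (0.34, interval 0.27 to 0.41). Its ratio was 0.22 against genes of its own level. All 3 enzymes of serine synthesis were therefore higher, and the interval of the final step lay below those of the earlier ones.

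Serine passes its side chain carbon to folate. SHMT2, the mitochondrial enzyme that does so, had 71.1 CPM without and 82.7 CPM with M2BPGi (0.21). MTHFD2, which oxidises the folate unit in mitochondria, had 78.0 and 112.5 CPM (0.52, interval 0.44 to 0.61). ASNS, asparagine synthetase and a classical target of ATF4, had 76.2 CPM without and 106 CPM with M2BPGi. Its log2 ratio was 0.47 (interval 0.39 to 0.56), close to that of the C/EBP factors, and its match lies near the transcript start.

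The proline enzymes went opposite ways. ALDH18A1, which begins proline synthesis from glutamate, had 52.6 CPM without and 41.0 CPM with M2BPGi, a log2 ratio of -0.35 (interval -0.48 to -0.24). PYCR1, which completes it, had 142 and 175 CPM (0.29, interval 0.23 to 0.36, and 0.18 against genes of its own level). ALDH18A1 was the lower member among the 11 enzymes.

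GPT2, the mitochondrial alanine transaminase, had 55.1 CPM without and 69.7 CPM with M2BPGi (0.33). CTH and CBS make cysteine from homocysteine. CTH had 13.3 and 17.1 CPM (0.35), while CBS had 96.5 and 111 CPM (0.20). Tags of CBS are uncertain, since the gene CBSL matches its first 500 nt at 100% identity. ASNS, MTHFD2, PSAT1 and PSPH also have near-identical copies, none of which has a value here.

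The amino acid transporters lay at the background of all genes. Their median log2 ratio was -0.06 beside -0.05, with 3 of 7 above 0 beside 42.9%, and their sum was 1796 CPM without and 1582 CPM with M2BPGi. SLC38A2 (ENSG00000134294), the sodium-coupled carrier of alanine and glutamine that cells induce on amino acid shortage, had 532 CPM without and 362 CPM with M2BPGi. This log2 ratio of -0.55 (interval -0.59 to -0.52) was the lowest of the 33 members, short of 1.5-fold. It was -0.50 after rescaling to a median of 0 and -0.47 with the correction for transcript length, and against genes of its own level it was -0.67, past 1.5-fold. SLC38A2 alone accounted for most of the lower sum, with a difference of -170.04 CPM.

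The subunits of the heterodimeric carriers lay near 0. SLC7A5, the leucine carrier LAT1, had 420 CPM without and 423 CPM with M2BPGi (0.01), and its sign turned in the comparison by level (-0.10). SLC3A2, the heavy chain CD98 that pairs with it, had 164 and 149 CPM (-0.14, interval -0.20 to -0.07). Its ratio in the comparison by level was -0.25. SLC7A11, the cystine carrier that uses the same heavy chain, had 53.9 and 51.5 CPM (-0.06), a sign that turned when genes of like transcript length were taken as reference (0.07). SLC7A5 has near-identical sequence in SMG1P3, with 62.8 CPM without and 39.7 CPM with M2BPGi, in SLC7A5P2, with 56.1 and 35.3 CPM, and in SLC7A5P1, with 4.41 and 2.82 CPM. Tags could have been assigned to any of these genes.

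Neutral and basic amino acid carriers completed the group. SLC1A5, the glutamine carrier ASCT2, was the most abundant transporter at 588 CPM without and 551 CPM with M2BPGi (-0.09, interval -0.13 to -0.06). Its window holds a match, and its ratio against genes of its own level was -0.21. SLC1A4, its relative for serine and alanine, had 18.0 and 20.3 CPM (0.17), and its interval of -0.01 to 0.37 includes 0. SLC7A1, the arginine and lysine carrier, had 20.9 and 25.5 CPM (0.27, interval 0.11 to 0.45). The higher transporters were thus mostly low in abundance, and the abundant ones were level or lower. Without the 7 transporters, 23 of 26 members were higher, with a median log2 ratio of 0.35.

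The secreted factors and the receptor of the list were mixed. GDF15, a stress hormone, was the most abundant member with 705 CPM without and 620.4 CPM with M2BPGi, a log2 ratio of -0.18 (interval -0.22 to -0.15). This ratio was -0.30 against genes of its own level, -0.26 corrected for transcript length and -0.13 after rescaling to a median of 0. STC2, the secreted glycoprotein stanniocalcin 2, had 51.2 and 64.2 CPM (0.32, interval 0.22 to 0.43). VLDLR, a lipoprotein receptor, had 3.24 and 4.42 CPM (0.35), with a wide interval of 0.02 to 0.88 from 78 and 110 tags. Hence the most abundant of the 3 was lower and the others higher.

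**Figure D3:**
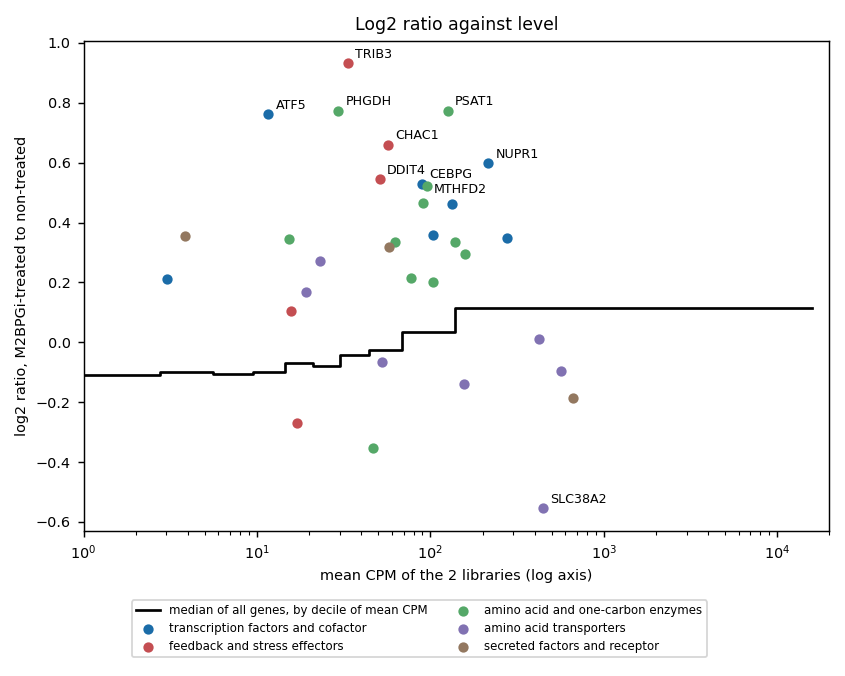
Log2 ratio against the mean CPM of both libraries (log axis) for the 33 genes, coloured by role, with the median of all genes in each decile of mean CPM as a black line. That median runs from -0.11 in the lowest decile to 0.11 in the highest, and most enzymes and factors lie above the line while SLC38A2, GDF15 and the abundant transporters lie below it.

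Level matters for this reading, because abundant genes ran higher in general. The highest decile of genes by mean CPM had a median log2 ratio of 0.11, and 9 of the 33 members belong to it. The lowest decile had -0.11 and holds 0 members. After subtraction of the median of each member's own decile, the median of the members was 0.32, with 25 of 33 above 0.

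Upstream of ATF4, the 17 genes of the eIF2 kinases and eIF2 machinery had a median log2 ratio of -0.02, and 8 were higher, near the -0.05 and 42.9% of all genes. EIF2AK3, the kinase PERK that senses endoplasmic reticulum stress, had 57.6 CPM without and 37.8 CPM with M2BPGi (-0.60). It was the lowest of the 17 and just past 1.5-fold, a call lost after rescaling to a median of 0 (-0.54), correction for transcript length (-0.51) or level (-0.57) and with a pseudocount of 5 CPM (-0.55). EIF2AK4, the kinase GCN2 that senses uncharged tRNA and was picked after its values had been seen, had 31.9 and 31.4 CPM (-0.02). PPP1R15B, the constitutive relative of PPP1R15A, had 43.6 and 30.8 CPM (-0.49). Both eIF2 phosphatase subunits were therefore lower with M2BPGi. EIF2S1, the subunit that the kinases phosphorylate, had 89.0 and 112 CPM (0.33), and EIF2B3 of the exchange factor had 12.3 and 16.8 CPM (0.42).

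Other known targets of ATF4 were higher in 13 of 17 cases, beside 42.9% of all genes. Their median was 0.15, smaller than that of the 33 members. EIF4EBP1, an inhibitor of cap-dependent translation, had 173 CPM without and 249.9 CPM with M2BPGi (0.52). XPOT, the nuclear exporter of tRNA, had 171 and 233 CPM (0.44), whereas ERO1L, an oxidase of the endoplasmic reticulum, had 145 and 105 CPM (-0.46). These targets thus lay on either side of 0. TNFRSF10B, a death receptor, was lower, with 50.3 and 41.9 CPM (-0.26). INHBE and FAM129A were past 1.5-fold at low levels, with 1.91 and 3.74 CPM for the former and 1.04 and 2.29 CPM for the latter; both were named after their values had been seen.

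Charging of tRNA is another arm of the response. The 20 cytosolic aminoacyl-tRNA synthetases had a median log2 ratio of 0.11 and 16 were higher, beside 42.9% of all genes. WARS, for tryptophan, had 51.3 CPM without and 87.2 CPM with M2BPGi (0.75), and SARS, for serine, had 98.5 and 145 CPM (0.55). QARS, for glutamine, and RARS, for arginine, were the lowest, at -0.29 and -0.21.

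The list of endoplasmic reticulum chaperones also holds sensors, factors and degradation genes of the ATF6 and XBP1 branches of the unfolded protein response, and it had the opposite direction. The median log2 ratio of these 21 genes was -0.35, with 2 higher, beside 42.9% of all genes. Their sum was 11795 CPM without and 9068 CPM with M2BPGi. EDEM1, a factor of glycoprotein degradation, had 53.1 and 34.6 CPM (-0.60, and -0.50 to -0.56 under the settings given for EIF2AK3, short of 1.5-fold), and CRELD2, a secreted chaperone, had 58.8 and 39.6 CPM (-0.56). The higher genes were both sensors and not chaperones, ERN1 (the kinase IRE1) at 0.33 and ATF6 at 0.04. The interval of ATF6 (-0.15 to 0.24) includes 0, so that no difference was detectable for ATF6 at this depth. Both sets of stress genes thus differed in direction between the same libraries.

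Of 23 transporters outside the list, 17 were listed and 16 had a mean of at least 1 CPM. These were lower in 16 of 16 cases, with a median of -0.36, while 42.9% of all genes were above 0. This median was not corrected for transcript length or level. The lowest was SLC6A6, the taurine carrier, with 47.3 CPM without and 25.7 CPM with M2BPGi (-0.86), followed by SLC38A10 with 72.1 and 49.0 CPM (-0.55). SLC43A1 (-0.18) and SLC1A1 (-0.13) were nearest to 0 among those with a mean of at least 10 CPM. The transporters of the ATF4 list therefore lay between the enzymes of that list and the other transporters, by their medians.

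**Figure D4:**
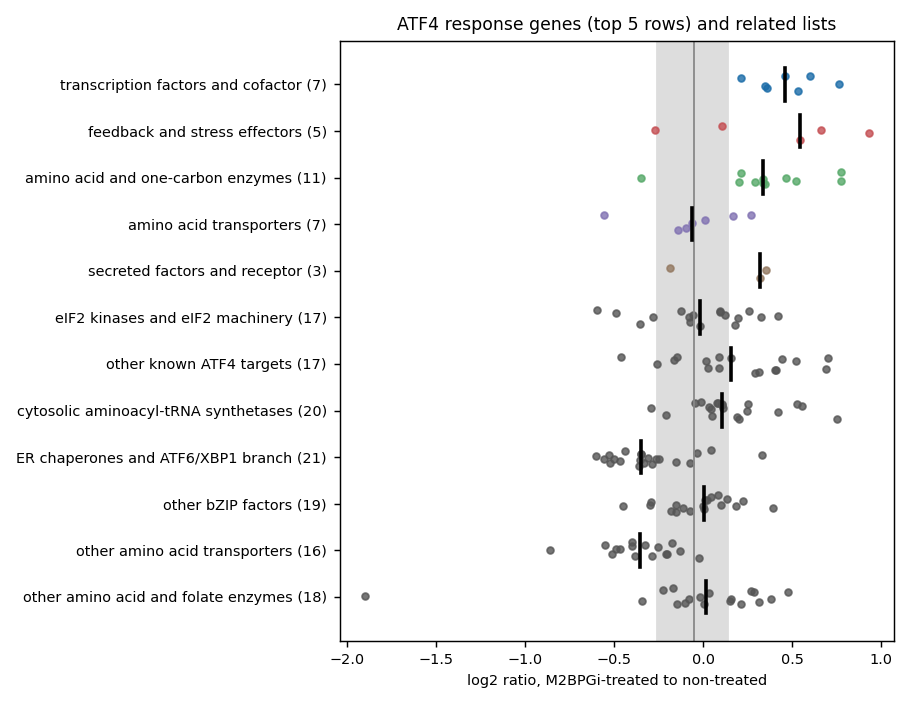
Log2 ratio (M2BPGi-treated over non-treated) for each gene (points) of the 5 role groups of ATF4 response genes (coloured) and of related lists (grey), with the number of genes in brackets, the median of each list as a black bar and the median and quartiles of all genes as a grey line and band. Vertical scatter within a list carries no value; factors, effectors and enzymes lie to the right of the band by their medians (0.46, 0.55 and 0.34), and the list of chaperones and ATF6/XBP1 genes and the other transporters to its left (-0.35 and -0.36).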

How the data were processed

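CAGE tags were measured in 1 library of non-treated and 1 library of M2BPGi-treated PLC/PRF/5 cells. The authors removed ribosomal tags, mapped the rest with BWA and deposited CPM per gene, rounded to 2 decimals. The submitters' processing notes also name HISAT2 and hg19, whereas the methods name a mouse genome; identifiers in the values are of human genes. The assignment of tags to genes and to near-identical copies is not given in the sources used here.

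Members were matched by symbol. The members and lists were chosen with earlier results of these data known. The number of tags behind each value was recovered from the CPM steps, taking the whole-number library total that fitted most values; 100% of values above 0 were then whole tags within 0.005 CPM. Log2 ratios had a pseudocount of 1 CPM and needed a mean CPM of at least 1. No p-values were computed. All members are named; of each related list, the 2 highest and 2 lowest log2 ratios with a mean of at least 10 CPM and any such gene past 1.5-fold are named. Some genes that this rule selects are not reported here. Copies were searched with BLAST+ 2.17.0 in the first 500 nt of GENCODE transcripts (at least 100 nt at 95% identity). Scripts used Python 3.11.15 with numpy 2.4.6, pandas 2.3.3 and scipy 1.17.1, and were tested on simulated data. Alternatives were other pseudocounts, filters, fold thresholds and scalings.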

Additional observations from a re-analysis of the deposited data

How the results depend on the processing

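The median log2 ratio of the members stayed between 0.29 and 0.39 under other pseudocounts, filters and scalings, with 26 members higher in the planned settings other than correction for transcript length (27) and a filter of 10 CPM (24 of 31). The count of members at least 1.5-fold higher was between 5 and 8 under these settings. With thresholds of 25% and of 2-fold it was 17 and 0, by construction, and 2 members were lower at the 25% threshold. Correction for the median of genes of like mean CPM, chosen after seeing the data, gave 1 member at least 1.5-fold lower (SLC38A2), whereas the planned settings at 1.5-fold gave 0. Members without a near-identical copy, also chosen after seeing the data, had a median of 0.31 over 26 genes. Of 425 single values under alternatives, 32 moved beyond their counting interval. No value past 1.5-fold changed sign, while SLC7A11 turned to 0.07 with the correction for transcript length and SLC7A5 to -0.10 with that for level, both from values near 0. TMM normalization, DESeq2 size factors, the exact binomial test and the edgeR exact test were planned and not run. Within a tolerance of 0.1 tag, narrower than the rounding of about 0.12 tag, 87.6% and 94.1% of the values of up to 20 tags were whole in non-treated and M2BPGi-treated cells, and tests on the recovered tags were left out. The counting intervals rest on the same recovered tags, so this limit holds for them too. No paired analysis was possible because there was 1 library per condition. Depth limits ATF3 (66 and 83 tags) and VLDLR (78 and 110 tags) most.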

Other observations

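Other bZIP factors, the family that ATF4 belongs to, had a median log2 ratio of 0.01 over 19 entries, with 10 higher and 8 lower. JUND had 449 CPM without and 511 CPM with M2BPGi (0.19, and 0.07 against genes of its own level). CEBPD had 115 and 126 CPM (0.13). NFE2L1, a factor of proteasome recovery, had 409 and 334 CPM (-0.29), and MAFG, a small MAF partner, had 36.2 and 26.2 CPM (-0.45).

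Amino acid and folate enzymes outside the ATF4 list had a median of 0.02, with 10 of 18 higher. MTHFD1L, the mitochondrial partner of MTHFD2, had 40.4 CPM without and 56.5 CPM with M2BPGi (0.47), and GOT1, the cytosolic aspartate transaminase, had 46.8 and 61.3 CPM (0.38).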
